A study of Mus musculus with 48 samples.

Results

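Bone morphogenetic protein (BMP) signalling was followed through 10 genes of mouse forelimb buds: the ligands Bmp2, Bmp4 and Bmp7, the receptor Bmpr1a, the inhibitory Smad gene Smad6, and the target genes Id1, Id2, Id3, Msx1 and Msx2. They were chosen by name, as the probe sets of the array that name 1 of these symbols alone. All 10 genes were measured, by 13 of the 10855 probe sets that name 1 gene, and stood among 8252 genes in all. Bmp2 had 3 probe sets, Bmp4 had 2 and each of the other genes had 1; probe sets of a gene were averaged.

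Pregnant mice were injected intraperitoneally on gestation day 9.5. Treated mice received acetazolamide at 400 mg/kg, a carbonic anhydrase inhibitor, or cadmium sulfate at 4 mg/kg, a toxic metal salt. The controls received the vehicle alone, which was vegetable oil for acetazolamide and phosphate buffered saline (PBS) for cadmium. Right forelimb buds were collected after 3 h or 12 h, and ectoderm and mesoderm were separated with trypsin. The 2 agents with their vehicles, 2 tissues and 2 times gave 16 groups of 3 arrays, or 48 arrays. The labels differ on pooling: the treatment protocol has tissue from several litters combined for RNA, whereas the design text calls the RNA extracts individual and not pooled. Both hold if each array had its own extract of combined litters, but the labels do not say whether the 3 arrays of a group came from separate litters, so p-values measure the spread between these arrays. The strain is not given in the labels.

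In the limb bud, BMP ligands are made in the ectoderm, including the apical ectodermal ridge at its rim, and in parts of the mesoderm. They bind pairs of type I and type II receptor kinases, which phosphorylate Smad proteins that enter the nucleus with Smad4 and switch target genes on. The Id genes, which encode inhibitors of basic helix-loop-helix transcription factors, are among the most direct of these targets, and Smad6 is a target that feeds back to dampen the pathway. BMP signalling is known for its part in dorsoventral patterning of the bud, in control of the ridge and in death of cells between the digits.

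Each deposited value is a ratio that sets an array against the vehicle arrays of its tissue and time point. A ratio of 1 is the vehicle level, and a log2 difference of -1 is a halving. Vehicle arrays 1 and 2 summed to 2 for every probe set and vehicle array 3 was 1, so the vehicle arrays show less spread than 3 free samples would. No expression level was kept. The level of 1 gene therefore cannot be set beside that of another, and the ectoderm and mesoderm labels could not be checked against the levels of marker genes. In such bulk samples, fewer cells of a type and less RNA per cell cannot be told apart. The median log2 ratio of an array lay between -0.12 and 0.10.

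At 3 h after acetazolamide, most of these genes had mean log2 ratios below the oil means in both tissues. Many of the groups overlapped, and no gene passed the test. The median log2 difference, acetazolamide minus oil, was -0.37 over the 10 genes in ectoderm, with 7 of 10 below 0, and -0.35 in mesoderm, with 8 of 10 below 0. Over all genes the medians were -0.04 and -0.03, with 61.1% and 56.5% below 0. In acetazolamide mesoderm the 10 genes had median log2 ratios of -0.05, -0.19 and -0.65 in arrays 1, 2 and 3, so array 3 weighed most. Id1, Id3, Msx1 and Msx2 had differences of -0.36 or lower in both tissues. At 12 h after acetazolamide the ectoderm median was 0.14, with 9 of 10 above 0, and the mesoderm median was -0.13. Cadmium gave medians of -0.04 in ectoderm and -0.06 in mesoderm at 3 h, and of -0.09 and 0.03 at 12 h.

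With limma across all genes and Benjamini-Hochberg adjustment, 0 of the 10 genes passed an adjusted p of 0.05 in any of the 8 comparisons. Over all genes, the share that passed was 0.0242% in acetazolamide ectoderm and 0.0364% in acetazolamide mesoderm at 3 h, and 0% in both acetazolamide tissues at 12 h. It was 0% in both cadmium tissues at 3 h, 0.0242% in cadmium ectoderm at 12 h and 2.28% in cadmium mesoderm at 12 h. A count of 0 among 10 genes is what shares of that size leave. At an unadjusted p under 0.05, 4 of the 10 genes were lower in acetazolamide ectoderm at 3 h (3.51% of all genes) and 4 of 10 were lower in acetazolamide mesoderm (2.76%), where 1 was higher (4.59%). At 12 h, 1 was higher in acetazolamide ectoderm (5.67%) and 1 was lower in cadmium mesoderm (7.11%), and the other 4 comparisons had none (3.32% and 3.09% of all genes in cadmium ectoderm and mesoderm at 3 h, 4.45% in cadmium ectoderm and 0.788% in acetazolamide mesoderm at 12 h).

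**Figure D1:**
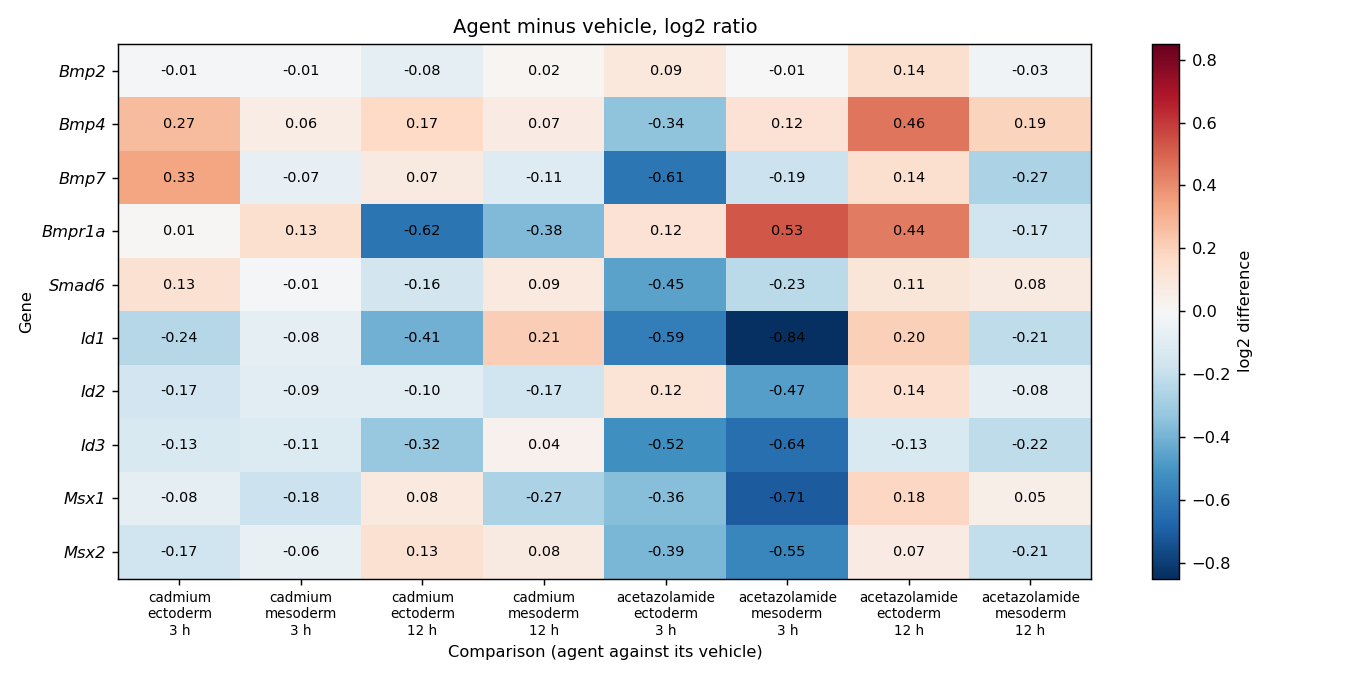
Log2 difference, agent minus vehicle, for the 10 genes (rows) in the 8 comparisons (columns, with 3 treated and 3 vehicle arrays each). Blue cells are lower and red cells higher after the agent; the lowest value is -0.84 for Id1 in acetazolamide mesoderm at 3 h, and no cell passed an adjusted p of 0.05.

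Bmp4 lies on chromosome 14 (chr14:46383525-46390669, GRCm38.p6), and Bmp2 (chr2:133552159-133562896) and Bmp7 (chr2:172868012-172940321) lie on chromosome 2. Bmp4 and Bmp2 are closely related ligands, and Bmp7 belongs to another subgroup of the family. In ectoderm at 3 h, Bmp7 had ratios of 0.869, 0.697 and 0.462 in acetazolamide arrays, against 1.05, 0.951 and 1 in oil arrays. All 3 acetazolamide arrays lay below all oil arrays, and the third was the lowest. The log2 difference was -0.61 ± 0.23 (SE, n = 3 each; limma adjusted p = 0.637), and -0.36 without array 3 of either group. Bmp7 in acetazolamide mesoderm at 3 h had 1.05, 0.960 and 0.665, against 1.11, 0.892 and 1 in oil mesoderm, and these groups overlapped (-0.19 ± 0.24).

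Bmp4 had ratios of 0.728, 0.727 and 0.918 in acetazolamide ectoderm at 3 h, against 0.896, 1.10 and 1 in oil ectoderm. Acetazolamide arrays 1 and 2 were low and array 3 lay within the oil arrays (log2 difference -0.34 ± 0.18, SE, n = 3 each; limma adjusted p = 0.730), and the difference was -0.22 without oil array 2. At 12 h Bmp4 stood on the other side of 1 in ectoderm, with 1.34, 1.66 and 1.15 in acetazolamide arrays, against 0.901, 1.10 and 1 in oil arrays. The groups did not overlap, and the log2 difference was 0.46 ± 0.22 (adjusted p = 0.632). Mesoderm at 12 h gave Bmp4 ratios of 1.23, 1.14 and 1.04 after acetazolamide, against 1.01, 0.990 and 1 with oil, again with no overlap (0.19 ± 0.18, adjusted p = 1). In ectoderm the Bmp4 effect at 12 h minus that at 3 h was 0.80 ± 0.28 (unadjusted p = 0.00812, limma adjusted p = 1), so the difference between times did not pass the test.

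The 2 Bmp4 probe sets did not always share a sign. In acetazolamide ectoderm both had differences of 1 sign at each time, -0.47 and -0.21 at 3 h and 0.54 and 0.38 at 12 h. In acetazolamide mesoderm they opposed each other, with -0.11 and 0.36 at 3 h and 0.40 and -0.03 at 12 h. The averaged Bmp4 values in mesoderm therefore rest on probe sets that disagree.

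Averaged over its 3 probe sets, Bmp2 stayed close to 1. Its log2 differences ran from -0.08 in cadmium ectoderm at 12 h to 0.14 in acetazolamide ectoderm at 12 h. At 12 h Bmp2 had 1.16, 1.12 and 1.02 in acetazolamide ectoderm, against 0.980, 1.02 and 1 in oil ectoderm, which did not overlap by a narrow margin (0.14 ± 0.09, adjusted p = 0.687). The 95% interval of its mean effect at 3 h of acetazolamide over both tissues ran from -0.07 to 0.15, the narrowest among the 10 genes in that contrast. In acetazolamide ectoderm the probe sets were unequal. One had differences of 0.28 at both times, with acetazolamide ratios of 1.49, 1.07 and 1.13 at 3 h and 1.32, 1.14 and 1.21 at 12 h, all above its oil arrays. The other two had -0.02 and 0.01 at 3 h and 0.03 and 0.09 at 12 h.

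Cadmium left the ligands without a called difference. Bmp7 in cadmium ectoderm at 3 h had 1.05, 1.20 and 1.57, against 0.933, 1.07 and 1 in PBS ectoderm. Arrays 2 and 3 were above the PBS arrays and array 1 overlapped them (0.33 ± 0.21, adjusted p = 0.999). The Bmp7 effect of cadmium minus that of acetazolamide in ectoderm at 3 h was 0.94 ± 0.32, the largest difference between agents among the 10 genes at 3 h (unadjusted p = 0.00597, limma adjusted p = 0.645). The same difference was 0.61 ± 0.24 for Bmp4 and 0.59 ± 0.24 for Smad6. At an unadjusted p under 0.05, 3 of the 10 genes were higher in this contrast, beside 3.95% of all genes, and 0 passed after adjustment, beside 0.0121%.

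Bmpr1a (chr14:34411061-34503336) encodes a type I BMP receptor. It went against most of the other genes at 3 h of acetazolamide in mesoderm, with 1.22, 1.31 and 1.86 in acetazolamide arrays and 0.949, 1.05 and 1 in oil arrays. All 3 acetazolamide arrays lay above the oil arrays, and array 3 was the highest. The log2 difference was 0.53 ± 0.22 (limma adjusted p = 0.596), and 0.34 without array 3 of either group. In acetazolamide ectoderm at 12 h Bmpr1a had 1.32, 1.03 and 1.83, against 0.900, 1.10 and 1 with oil, which overlapped (0.44 ± 0.27).

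After cadmium, Bmpr1a was the gene with the lowest difference of the 10 at 12 h in both tissues. Cadmium ectoderm had 0.923, 0.801 and 0.370, against 0.915, 1.08 and 1 in PBS ectoderm, and array 3 was far below the other arrays. Cadmium mesoderm had 1.02, 0.701 and 0.627, against 1.12, 0.876 and 1 in PBS mesoderm; array 1 overlapped the PBS arrays and the other two lay below them. The log2 differences were -0.62 ± 0.32 in ectoderm and -0.38 ± 0.16 in mesoderm (SE, n = 3 each; limma adjusted p = 0.983 and 0.274). The mean over both tissues was -0.50 ± 0.18 with an adjusted p of 0.214, in a contrast where 1.07% of all genes passed. Without cadmium mesoderm array 1, the mesoderm difference was -0.57 and passed (adjusted p = 0.0401), and without PBS ectoderm array 1 the mean was -0.59 and passed (adjusted p = 0.0369). Leaving out PBS ectoderm array 1 also removes the spread between the PBS ectoderm arrays, as PBS array 3 is fixed. Other omissions brought Bmpr1a nearer to 0. Without array 3 of either ectoderm group the ectoderm difference was -0.21 and the mean -0.29, and without array 3 of either mesoderm group the mesoderm difference was -0.23.

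In the same cadmium mesoderm arrays at 12 h, 8 of 8 endothelial markers were above 0, with a median of 0.32, and Tie1 and Eng, which encode endothelial surface receptors, rose by 0.63 ± 0.12 and 0.58 ± 0.16 (adjusted p = 0.00187 and 0.0425). Of 7 blood markers 6 were above 0, and Alas2, an erythroid haem synthesis enzyme gene, rose by 0.53 ± 0.12 (adjusted p = 0.0169). Over all genes, 2.28% passed in this comparison. The shares of all genes below a ratio of 1 were 55.3%, 51.1% and 39.9% in cadmium arrays 1, 2 and 3. With 1 array left out, Tie1 passed each time, but it missed the threshold under 3 of 14 alternatives: without weights, with arrays 1 and 2 only and with only the arrays compared (adjusted p up to 0.21). Eng and Alas2 also missed it under these 3. Eng did not pass without cadmium array 2 or 3 or PBS array 1 or 3 (adjusted p up to 0.313), and Alas2, at 0.31, did not without cadmium or PBS array 3 (adjusted p = 0.38). Their part in the Bmpr1a values was not tested.

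Smad6 (chr9:63953076-64022085) encodes an inhibitory Smad that binds type I receptors. Its promoter is shown because it holds a palindromic Smad box that is rare among promoters, and those of Id2, Id3 and Msx1 are shown because their ratios at 3 h of acetazolamide are compared further on. Each run is 300 bases, from 250 before to 50 after the start that the RefSeq promoter table uses, 5′ to 3′ along the gene's strand, on GRCm38.p6. That start is the outer end of the gene's coordinates for Id2, Id3 and Msx1, but lies inside them for Smad6 and for Bmpr1a. Capitals mark matches on either strand to GGCGCC, a GC-rich Smad box, to CAGAC, the short Smad box, which reads as GTCTG from the other strand, or to GTCTAGAC, the palindromic Smad box.
Smad6, chr9:64022010-64022309, minus strand: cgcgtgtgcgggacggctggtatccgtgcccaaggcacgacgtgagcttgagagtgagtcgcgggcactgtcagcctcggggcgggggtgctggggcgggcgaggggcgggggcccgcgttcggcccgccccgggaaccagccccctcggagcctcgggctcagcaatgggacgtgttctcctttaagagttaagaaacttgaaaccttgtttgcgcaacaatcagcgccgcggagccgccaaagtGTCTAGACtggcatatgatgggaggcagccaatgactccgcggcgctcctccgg
Id2, chr12:25096043-25096342, minus strand: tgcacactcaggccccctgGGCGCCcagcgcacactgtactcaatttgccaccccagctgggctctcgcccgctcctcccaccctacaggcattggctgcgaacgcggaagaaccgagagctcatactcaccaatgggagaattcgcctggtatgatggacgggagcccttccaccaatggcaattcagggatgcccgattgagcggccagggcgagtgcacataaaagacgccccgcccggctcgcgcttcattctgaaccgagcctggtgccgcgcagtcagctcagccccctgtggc
Id3, chr4:136143572-136143871, plus strand: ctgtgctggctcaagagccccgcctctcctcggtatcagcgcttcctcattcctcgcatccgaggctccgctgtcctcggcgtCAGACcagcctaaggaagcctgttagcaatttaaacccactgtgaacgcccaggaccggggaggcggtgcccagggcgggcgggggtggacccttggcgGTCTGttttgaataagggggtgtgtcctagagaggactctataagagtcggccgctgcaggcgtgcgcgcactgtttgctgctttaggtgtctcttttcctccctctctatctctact
Msx1, chr5:37824536-37824835, minus strand: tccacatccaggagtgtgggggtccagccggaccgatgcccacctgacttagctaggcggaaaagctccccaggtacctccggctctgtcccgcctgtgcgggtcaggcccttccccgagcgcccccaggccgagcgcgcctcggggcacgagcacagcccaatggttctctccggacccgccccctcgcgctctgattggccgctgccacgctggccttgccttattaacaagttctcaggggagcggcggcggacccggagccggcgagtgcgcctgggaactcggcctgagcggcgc

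RefSeq windows were at hand for 7 of the 10 genes: Bmp4, Bmpr1a, Smad6, Id2, Id3, Msx1 and Msx2. GTCTAGAC was in the Smad6 window and in 0.213% of all 32851 windows of this length. CAGAC was in 1 of the 7, with 2 matches in Id3, and in 49.6% of all windows. GGCGCC was in 2 of the 7, Id2 and Bmpr1a, and in 11.9% of all windows. The other windows among the 7, Msx1 included, held no match to these letters. A match describes the sequence and is not evidence of binding.

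Smad6 had ratios of 0.839, 0.758 and 0.605 in acetazolamide ectoderm at 3 h, against 1.10, 0.903 and 1 in oil ectoderm. All 3 acetazolamide arrays lay below the oil arrays, and the log2 difference was -0.45 ± 0.18 (limma adjusted p = 0.649). In acetazolamide mesoderm at 3 h the ratios were 0.972, 0.930 and 0.675, against 0.843, 1.16 and 1 with oil, and overlapped (-0.23 ± 0.18). At 12 h acetazolamide ectoderm had 1.09, 1.43 and 0.741, against 0.728, 1.27 and 1 with oil, a spread as wide in both groups (0.11 ± 0.22). Over the 4 cadmium comparisons the Smad6 differences ran from -0.16 to 0.13.

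Id1 (chr2:152736251-152737410), Id2 (chr12:25093799-25096092) and Id3 (chr4:136143822-136145392) encode inhibitors of basic helix-loop-helix factors. Id1 had ratios of 0.685, 0.602 and 0.413 in acetazolamide mesoderm at 3 h, against 0.871, 1.13 and 1 in oil mesoderm. In ectoderm at 3 h it had 0.824, 0.579 and 0.613 after acetazolamide, against 0.938, 1.06 and 1 with oil. All 3 acetazolamide arrays lay below all 3 oil arrays in each tissue, with the lowest value in array 3 of mesoderm. In log2 ratio, Id1 averaged -0.85 ± 0.38 in acetazolamide mesoderm and -0.01 ± 0.19 in oil mesoderm (SD, n = 3 each). The fitted log2 differences were -0.84 ± 0.25 in mesoderm and -0.59 ± 0.24 in ectoderm (SE; limma adjusted p = 0.380 and 0.686).

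Id3 was tightly grouped in acetazolamide ectoderm at 3 h, at 0.692, 0.701 and 0.694, against 1.06, 0.938 and 1 in oil ectoderm. In mesoderm it had 0.885, 0.749 and 0.395 after acetazolamide, against 1.09, 0.913 and 1 with oil. The groups did not overlap in either tissue, though in mesoderm array 3 was far lower than arrays 1 and 2. The log2 differences were -0.52 ± 0.23 and -0.64 ± 0.24 (limma adjusted p = 0.693 and 0.538). Without acetazolamide array 3 the Id3 difference in mesoderm was -0.29, and that of Id1 was -0.63.

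Id2 had a difference above 0 in ectoderm, where Id1 and Id3 were below 0, but differences between genes were not tested. It had 0.949, 1.08 and 1.24 in acetazolamide ectoderm at 3 h, against 0.915, 1.08 and 1 in oil ectoderm, which overlapped (0.12 ± 0.15). In mesoderm it had 0.702, 0.823 and 0.609 after acetazolamide, against 0.741, 1.26 and 1 with oil. Acetazolamide array 2 lay above oil array 1, and the log2 difference was -0.47 ± 0.15 (limma adjusted p = 0.408). The Id2 effect in ectoderm minus that in mesoderm was 0.59 ± 0.21 (unadjusted p = 0.00936, adjusted p = 1), beside 0.25 ± 0.35 for Id1 and 0.12 ± 0.33 for Id3. None of these tissue differences passed, and over all genes 0% did.

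Leaving out oil mesoderm array 1, which was the low oil array for both Id1 and Id2, changed 2 calls. Id1 was then at -1.01 (adjusted p = 0.0157) and Id2 at -0.72 (adjusted p = 0.00072) in acetazolamide mesoderm at 3 h. Over all genes, 141 passed in that setting, beside 3 with every array. With oil array 3 fixed, arrays 1 and 2 carry the spread of the oil arrays, and leaving out array 1 removes it. The SE was then 0.21 for Id1 and 0.10 for Id2, beside 0.25 and 0.15 with every array. These adjusted p-values therefore do not measure the spread between the oil arrays. Without oil mesoderm array 2, the high oil array for Id2, its difference was -0.28 and did not pass. Oil mesoderm array 1 had 3′ to 5′ log2 ratios of control probe sets, a sign of RNA quality, of 1.30 for actin and 0.52 for Gapdh. Oil mesoderm arrays 2 and 3 had -0.24 and 0 for actin and -0.37 and 0 for Gapdh. Oil array 3 is 0 by construction, and the ratios of oil arrays 1 and 2 sum to 2 for each probe set. These values therefore cannot show whether array 1 or array 2 was unusual. The part of RNA quality in these calls was not tested.

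Msx1 (chr5:37820491-37824585) and Msx2 (chr13:53466881-53472780) encode homeodomain repressors expressed in the ridge and the distal mesoderm of the limb. Msx1 had 0.712, 0.737 and 0.432 in acetazolamide mesoderm at 3 h, against 0.873, 1.13 and 1 in oil mesoderm. The groups did not overlap, and the log2 difference was -0.71 ± 0.30 (limma adjusted p = 0.596). In ectoderm Msx1 had 0.951, 0.763 and 0.646 after acetazolamide, against 0.940, 1.06 and 1 with oil, and array 1 reached the oil arrays (-0.36 ± 0.30).

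Msx2 had 0.994, 0.703 and 0.418 in acetazolamide mesoderm at 3 h, against 1.27, 0.728 and 1 in oil mesoderm. Its oil arrays were spread and the groups overlapped (-0.55 ± 0.28, limma adjusted p = 0.689). In ectoderm it had 0.950, 0.618 and 0.743 after acetazolamide, against 1.16, 0.837 and 1 with oil, with the same overlap (-0.39 ± 0.27). Without acetazolamide mesoderm array 3, the differences in mesoderm were -0.45 for Msx1 and -0.20 for Msx2.

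Groups without overlap at 3 h of acetazolamide were thus those of Bmp7, Smad6, Id1 and Id3 below oil in ectoderm (4 of 10, beside 9.09% of all genes) and of Id1, Id3 and Msx1 below oil in mesoderm (3 of 10, beside 6.59%). Above oil stood Bmp2 in ectoderm (4.76% of all genes) and Bmpr1a in mesoderm (9.33%). At 12 h of acetazolamide, Bmp2 and Bmp4 in ectoderm (8.48%) and Bmp4 in mesoderm (3.43%) lay above oil, and Msx2 in mesoderm below (2.48%). After cadmium only Id2 in mesoderm at 12 h had groups without overlap, at 0.836, 0.974 and 0.865, against 0.981, 1.02 and 1 in PBS mesoderm (-0.17 ± 0.11). Of all genes 9.51% were lower without overlap in that comparison, so 1 of 10 is near the background. The other cadmium comparisons had 0 of 10 without overlap, beside 9.39% of all genes in ectoderm and 9.63% in mesoderm at 3 h and 10% in ectoderm at 12 h.

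**Figure D2:**
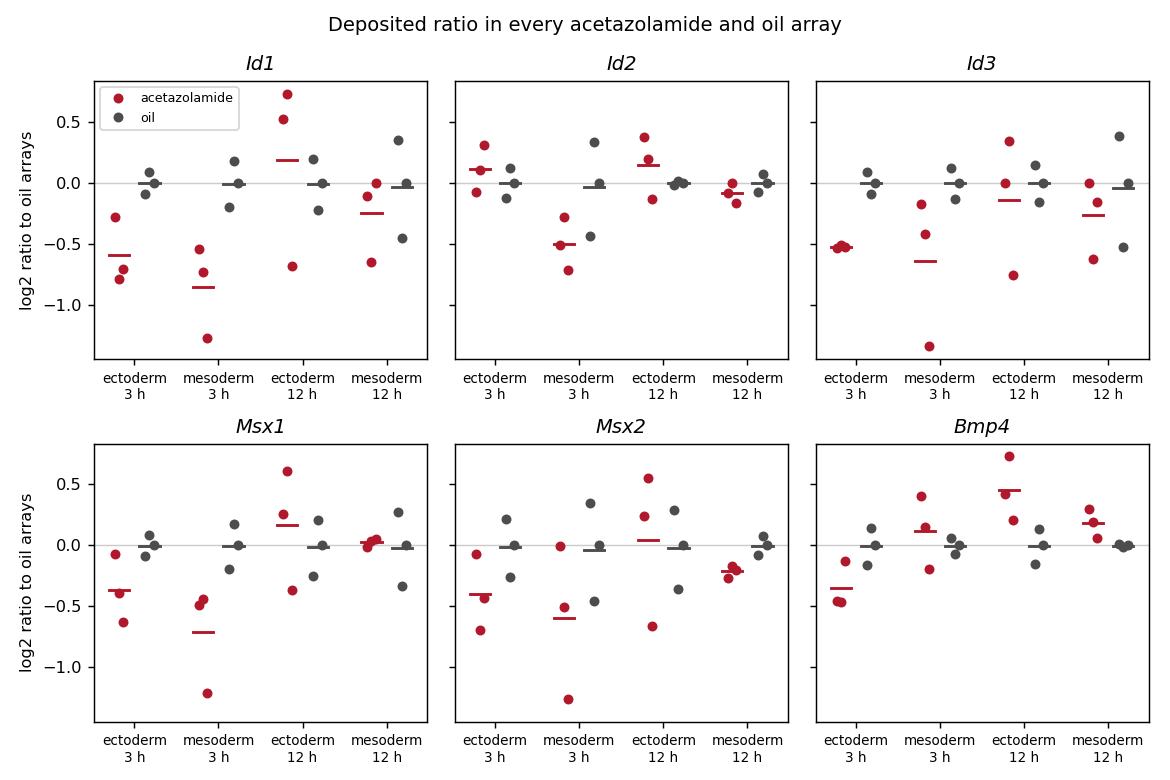
Log2 of the deposited ratio (vertical axis) in each acetazolamide array (red) and each oil array (grey) for Id1, Id2, Id3, Msx1, Msx2 and Bmp4, with bars at the mean of 3 arrays. Oil arrays centre on 0 by construction; Id1 and Id3 lie below them at 3 h in both tissues, and in ectoderm at 12 h acetazolamide array 3 is the lowest of its group for each gene plotted.

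Averaging the effects of both tissues gave the narrowest intervals at 3 h of acetazolamide. Id1 had a mean log2 difference of -0.72 ± 0.17 (95% interval -1.07 to -0.36), with a limma adjusted p of 0.0535 that missed the threshold. Id3 followed at -0.58 ± 0.17 (adjusted p = 0.104), then Msx1 at -0.53 ± 0.21, Msx2 at -0.47 ± 0.19, Bmp7 at -0.40 ± 0.17 and Smad6 at -0.34 ± 0.13, with adjusted p from 0.237 to 0.302. Gaps between neighbours in this order were smaller than the SEs. These 6 were lower at an unadjusted p under 0.05, beside 5.82% of all genes, 1 was higher (Bmpr1a), beside 7.62%, and 0 of 10 passed after adjustment, beside 0.533%. Id2 was at -0.18 ± 0.10 and Bmp4 at -0.11 ± 0.13, and Bmpr1a stood above 0 at 0.33 ± 0.16 (adjusted p = 0.362).

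The Id1 call in this mean depended on the setting. It passed with array numbers as a block (adjusted p = 0.0324), with each array centred on its median (adjusted p = 0.0490), without oil mesoderm array 1 (0.0118) and without oil mesoderm array 2 (0.0468). With the same-numbered ectoderm and mesoderm arrays averaged first, so that they are not counted as independent, the adjusted p was 0.135. Without oil mesoderm array 2, Id3 passed as well (-0.67, adjusted p = 0.0406). Leaving out oil mesoderm array 1 or 2 also removes the spread between these arrays, which the adjusted p-values then do not measure. The Id1 difference itself ran from -0.80 to -0.58 over all alternatives.

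The matching means at 12 h of acetazolamide were -0.01 ± 0.20 for Id1, -0.17 ± 0.19 for Id3, 0.11 ± 0.24 for Msx1 and -0.07 ± 0.22 for Msx2. Bmp4 was the highest of the 10 at 0.32 ± 0.14 (unadjusted p = 0.0317, limma adjusted p = 0.855). The mean effects of cadmium at 3 h lay between -0.16 and 0.16 for all 10 genes. Id1, Id2, Id3, Msx1 and Msx2 had cadmium means from -0.16 to -0.12, and each 95% interval included 0. The 6 means tested gave 0 of 10 genes after adjustment; over all genes the shares were 0% for cadmium at 3 h, 0.0242% for acetazolamide at 12 h, 0.739% for acetazolamide and 0.570% for cadmium over both times.

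**Figure D3:**
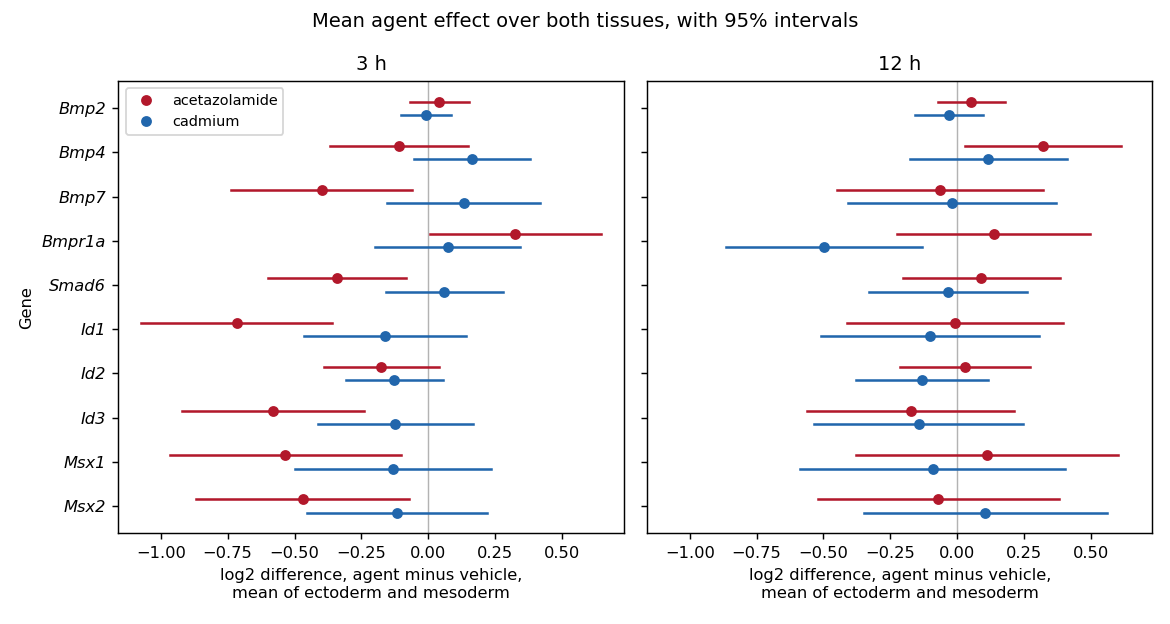
Mean log2 difference, agent minus vehicle, over ectoderm and mesoderm (points) with 95% intervals (lines) for acetazolamide (red) and cadmium (blue) at 3 h and 12 h. At 3 h the acetazolamide intervals of Id1, Id3, Msx1, Msx2, Bmp7 and Smad6 lie below 0 and that of Bmpr1a lies above 0. At 12 h the cadmium interval of Bmpr1a lies below 0 and the acetazolamide interval of Bmp4 lies above 0. The intervals are not adjusted for the number of genes.

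Whether acetazolamide effects differed between times was tested directly. In ectoderm the effect at 12 h minus that at 3 h was above 0 for 10 of 10 genes, with a median of 0.50, beside a median of 0.03 over all genes with 44.1% below 0. The median ran from 0.36 without oil 12 h array 1 to 0.82 without array 3 of either 12 h group, and 1 of the 10 genes was below 0 under some omissions of 1 array. The largest were 0.80 for Bmp4, 0.79 ± 0.39 for Id1, 0.75 ± 0.37 for Bmp7 and 0.56 ± 0.28 for Smad6. Of the 10 genes 1 had an unadjusted p under 0.05, beside 2.56% of all genes in that direction, and 0 passed with limma after adjustment, as for all genes (0%). In mesoderm the same difference was 0.75 ± 0.43 for Msx1, 0.63 ± 0.35 for Id1 and -0.70 ± 0.32 for Bmpr1a, and none passed. The 12 differences between tissues, times or agents gave 0 calls among the 10 genes; over all genes at most 0.460% were called in any of them.

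The 12 h ectoderm groups were the least uniform. In acetazolamide ectoderm the median log2 ratio of the 10 genes was 0.26 in array 1, 0.51 in array 2 and -0.38 in array 3, with 1, 0 and 7 genes below a ratio of 1. Array 3 was thus opposite to arrays 1 and 2. It is inferred to have been set against oil array 3 alone, so a shift in either array cannot be told apart here. Without acetazolamide array 3 the median difference was 0.39, and without array 2 it was 0.01.

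In cadmium ectoderm at 12 h the medians were -0.09, -0.61 and 0.33 in arrays 1, 2 and 3. Array 2 was low for Id1 at 0.375, for Id3 at 0.460 and for Bmp7 at 0.504, while array 3 was high for Msx2 at 1.82, for Msx1 at 1.72 and for Bmp7 at 1.58. The Id1 difference there was -0.41 ± 0.35 with all arrays and 0.04 without cadmium array 2. The 3′ to 5′ log2 ratio of the Gapdh control probe sets, a sign of RNA quality, was 1.80 in cadmium array 2, -0.67 and 0.44 in the other two cadmium arrays and between -0.33 and 0.42 in the PBS arrays. The actin probe sets did not set array 2 apart, with 0.02, 0.08 and 0.07 in the cadmium arrays and -0.23, 0.40 and 0 in the PBS arrays. PBS array 3 is 0 by construction and PBS arrays 1 and 2 are tied, so the PBS values show less spread than 3 free samples would. The part of RNA quality in the BMP gene values was not tested.

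**Figure D4:**
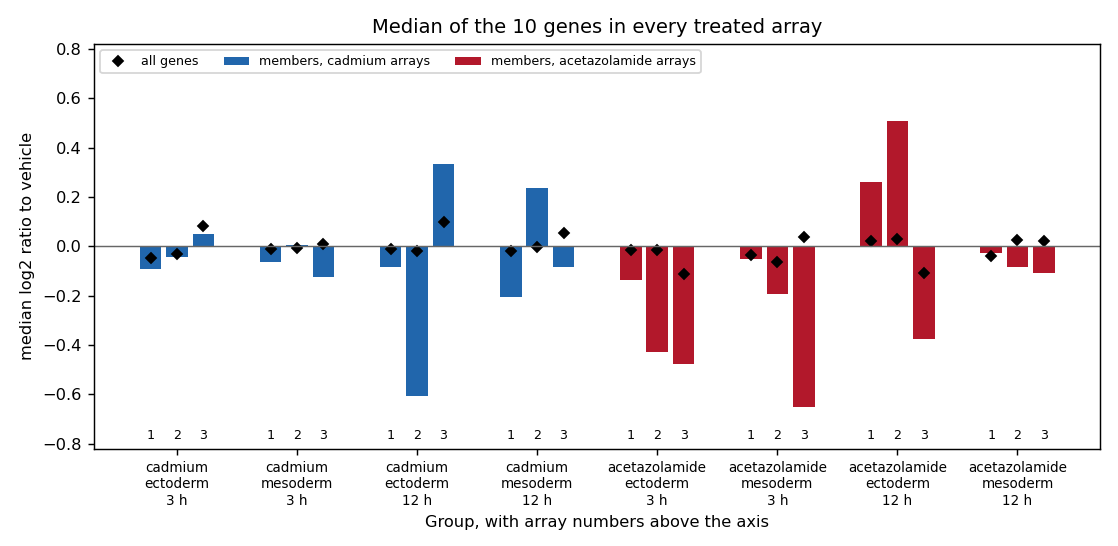
Median log2 ratio of the 10 genes (bars) and of all genes (black diamonds) in each of the 24 treated arrays, by group, with array numbers above the axis; blue bars are cadmium arrays and red bars acetazolamide arrays. The bars of all 6 acetazolamide arrays at 3 h are below 0, with mesoderm array 1 at -0.05, beside -0.03 over all genes. Arrays of the 12 h ectoderm groups lie on both sides of 0.

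RNA quality signs differed in the acetazolamide arrays at both times. At 3 h the 3′ to 5′ log2 ratio was higher after acetazolamide than with oil by 0.45 for Gapdh and 0.26 for actin in ectoderm, and by 0.59 and 0.52 in mesoderm. At 12 h it was higher by 0.41 and 0.23 in ectoderm and by 0.42 and 0.24 in mesoderm. Single arrays weighed on it in mesoderm. Actin at 3 h had 1.55, 1.10 and -0.03 in acetazolamide arrays, against 1.30, -0.24 and 0 in oil arrays, and its difference ran from 0.186 to 0.997 with 1 array left out. Acetazolamide array 3, the lowest for the Id and Msx genes, was at -0.03 for actin and at 0.50 for Gapdh. Oil array 3 is 0 by construction, and acetazolamide array 3 is inferred to have been set against it. Gapdh at 3 h had 0.62 and 0.80 in acetazolamide arrays 1 and 2, against 0.52, -0.37 and 0 in oil arrays. For Gapdh at 12 h the difference ran from -0.20 to 0.76. Limb mesoderm markers were above 0 for 2 of 9 in acetazolamide mesoderm at 3 h, with a median of -0.14, and endothelial markers for 2 of 8, with a median of -0.19. Limb ectoderm markers there were above 0 for 9 of 15 (median 0.03) and blood markers for 2 of 7 (median -0.08). In acetazolamide ectoderm at 3 h the counts above 0 were 5 of 15 ectoderm, 6 of 9 mesoderm, 1 of 8 endothelial and 0 of 7 blood markers. The part of these values in the BMP gene ratios was not tested.

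Of 60 further genes of the pathway, 45 were measured: 9 ligands, 6 receptors, 8 Smads or regulators, 8 extracellular antagonists and 14 targets. With limma, 0 of 45 passed in any of the 8 comparisons. At 3 h of acetazolamide their median was -0.06 in ectoderm and -0.06 in mesoderm, nearer to the median of all genes than that of the 10 genes. The ligands were above 0 for 0 of 9 in ectoderm (median -0.10) and 1 of 9 in mesoderm (median -0.08). The other targets were above 0 for 7 of 14 and 6 of 14, with medians of -0.00 and -0.04 at 3 h of acetazolamide, where the Id and Msx genes had medians of -0.39 and -0.64.

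Among these genes Prdm1, a zinc finger repressor, had 1.85, 1.12 and 1.29 in acetazolamide ectoderm at 3 h, against 0.890, 1.11 and 1 in oil ectoderm. In mesoderm Prdm1 had 1.26, 1.49 and 1.31 after acetazolamide, against 0.897, 1.10 and 1 with oil. Both pairs of groups were separate, in ectoderm by a narrow margin (1.12 against 1.11). Of all genes, 4.76% in ectoderm and 9.33% in mesoderm were higher without overlap. The log2 differences of Prdm1 were 0.48 ± 0.18 and 0.44 ± 0.19 (limma adjusted p = 0.637 and 0.596). Hand2, a basic helix-loop-helix factor of the posterior limb mesoderm, had 0.783, 0.771 and 0.767 in acetazolamide mesoderm at 3 h, against 1.01, 0.991 and 1 with oil. Its arrays were tightly grouped and separate (-0.37 ± 0.14, adjusted p = 0.551), beside 6.59% of all genes lower without overlap. Prdm1 and Hand2 were picked for their large absolute t in these comparisons, so their separation adds no support.

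Fstl1, a secreted follistatin-like protein that binds BMPs, was the only one of the 45 to pass in a mean. In ectoderm at 3 h Fstl1 had 1.10, 1.31 and 1.46 after acetazolamide, against 0.937, 1.06 and 1 with oil. In mesoderm at 3 h it had 1.17, 1.25 and 1.33, against 0.983, 1.02 and 1 with oil. All 6 acetazolamide arrays at 3 h lay above the oil arrays of their tissue. Of all genes, 4.76% in ectoderm and 9.33% in mesoderm were higher without overlap at 3 h. Fstl1 was named for its large absolute t in ectoderm at 3 h and for a mean that includes these arrays. Its separation at 3 h therefore adds no support. At 12 h the Fstl1 groups overlapped in both tissues. Over both tissues and times Fstl1 rose by 0.34 ± 0.08 on the log2 scale (limma adjusted p = 0.0307), a 1.26-fold change. It is 1 of the 45 genes, beside 0.739% of all genes called in that mean. The call held under 19 of 33 alternatives, with differences from 0.26 to 0.41. It was lost when 1 of 11 single arrays was left out: acetazolamide arrays 2 and 3 of ectoderm and 2 of mesoderm at 3 h and 1 and 3 of ectoderm at 12 h, or oil arrays 1 and 3 of ectoderm at 3 h, 1 and 3 of ectoderm at 12 h and 1 and 2 of mesoderm at 12 h (adjusted p from 0.0508 to 0.116).

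Over the 24 treated arrays, log2 ratios of several of the 10 genes were correlated, most closely for Id1 and Id3 (Pearson r = 0.89) and for Msx1 and Msx2 (r = 0.83). Smad6 stood near Id1 (r = 0.81) and Bmp7 (r = 0.80). Bmpr1a ran the other way, with r = -0.64 against Msx2 and -0.54 against Msx1. Bmp2 (r from -0.13 to 0.29) and Id2 (r from -0.12 to 0.32) had weak correlations with every other gene of the 10. Of the genes outside the pathway lists, those most like Id1 were Pef1 (r = 0.88), Tnk2 (r = 0.87) and Ints3 (r = 0.87). Those most like Msx1 were Sh2b1 (r = 0.87), Fgd1 (r = 0.85) and Unc119 (r = 0.84), and those most like Bmp4 were Cdkn3 (r = 0.76), Asf1b (r = 0.70) and Rp9 (r = 0.69). Arrays 1 and 2 of a group share a denominator as inferred from the vehicle ratios, and arrays of a group share their treatment, so these correlations describe the arrays and carry no test.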

How the data were processed

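RNA was measured on 48 Affymetrix arrays. The deposited values are a linear ratio to vehicle arrays; how the authors made it is not given in the sources used here. Of 12488 probe sets, 10855 named 1 gene, 396 several and 1237 none. Ratios were converted to log2 and probe sets naming 1 gene averaged, which gave 8252 genes. Limma 3.58.1 in R 4.3.3 was fitted to all arrays with 16 denominator means (in each comparison 1 for arrays 1 and 2 and another for array 3), 8 effects of an agent, 1 precision weight per comparison and eBayes without a trend, leaving 24 residual degrees of freedom. That treated arrays share these denominators is inferred from the vehicle ratios. Benjamini-Hochberg adjustment ran over all genes of each contrast at a threshold of 0.05, for 8 comparisons, 12 differences and 6 means, and intervals are at 95%. The script was tested on simulated data. The number of arrays limits precision: the median half-width of a gene's interval ran from 0.21 in cadmium mesoderm to 0.42 in cadmium ectoderm, both at 12 h.

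The 10 genes, the pathway and marker lists and the fit were chosen with earlier results of these data known. Every one of the 10 genes is named. Of the wider list, genes past the threshold are named, with the 2 of largest absolute t in the 2 comparisons where the 10 genes had the largest absolute median; the 3 genes most correlated with Id1, Bmp4 and Msx1 are named for likeness, and other marker genes only where called. Alternatives were leaving out each array, other blocks, weights, scaling, probe set handling, a pseudocount of 0.1, robust eBayes and tissue averages. Promoters are from RefSeq on GRCm38.p6.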

Additional observations from a re-analysis of the deposited data

How the results depend on the processing

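Over the alternatives, 5287 of 5358 values of the 10 genes kept their call and either kept their sign or changed it by a move under 1 SE. Another 62 changed sign by a larger move, and 9 came to pass. The size of a move was not judged where the sign was kept. Bmp7 in cadmium ectoderm at 12 h, at 0.07 as reported, reached 0.60 with 1 array left out. In the mean of acetazolamide at 3 h, 1 gene passed (Id1) with arrays centred on their medians and 1 (Id1, -0.72, adjusted p = 0.0324) in the replicate block, and 0 to 2 passed when 1 array was left out. The count ran from 0 to 2 in acetazolamide mesoderm at 3 h, 0 to 1 in cadmium mesoderm at 12 h and 0 to 1 in the mean of cadmium at 12 h when 1 array was left out. It was 0 in the other contrasts under every alternative run. The median of the 10 genes at 3 h of acetazolamide ran from -0.50 to -0.31 in ectoderm and from -0.42 to -0.13 in mesoderm, the last without acetazolamide or oil array 3.

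Shared array numbers did not pair the samples throughout: deviations of same-numbered treated and vehicle arrays correlated from -0.20 to 0.65 (3 of 8 over 0.1), and those of ectoderm and mesoderm from -0.31 to 0.57 (4 of 8). The 4 tissue pairs over 0.1 were all of acetazolamide or oil, and at 3 h of that experiment every correlation was over 0.1 (0.22 and 0.55 between treated and vehicle arrays, 0.38 and 0.46 between tissues); there Id1 passed in the replicate block and not with tissues averaged (adjusted p = 0.135). Calls over all genes depended on the setting, with 0 to 141 in acetazolamide mesoderm at 3 h (3 as reported), 0 to 459 in cadmium mesoderm at 12 h (188 as reported, 459 in the replicate block) and 1 to 137 in the mean of acetazolamide at 3 h (44 as reported). A missed threshold here shows no absence of change: 3 arrays a group left SEs of 0.15 to 0.30 for the Id and Msx genes at 3 h of acetazolamide. The ratios carry no measure of signal over background.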
